A study of Rattus norvegicus with 6 samples.

Results

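The 10 matrix metalloproteinase genes described here are *Mmp2*, *Mmp3*, *Mmp9*, *Mmp10*, *Mmp11*, *Mmp12*, *Mmp13*, *Mmp14*, *Mmp16* and *Mmp19*. They were taken by gene symbol from a table of 18420 genes measured by RNA-seq in rat chondrocytes, and all 10 were found and passed the filter on low counts. The chondrocytes were isolated from the knee and hip cartilage of male wild-type Sprague-Dawley rats, whose age is not given in the sources used here, expanded in culture to the third passage and treated with 10 ng/mL TNF-α, an inflammatory cytokine used to model osteoarthritis in a dish. The 3 libraries of the TNF-α group were treated for 6 h, which would put their harvest at 6 h. The 3 libraries of the TNF-α+NFL group received the same TNF-α treatment for 6 h and then NFL for another 24 h. That would put their harvest at 30 h. The sample titles give no time of harvest. NFL, Nanofat lysate, is the cell-free supernatant left after freeze–thawing digested and filtered cells of rat abdominal fat. The NC group, treated with saline, was not analysed here, so both groups compared had received TNF-α. On these treatment times the groups also differed in the time of harvest, so NFL and time cannot be told apart.

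Matrix metalloproteinases are zinc-dependent enzymes that cut the proteins of the extracellular matrix. Most are made as inactive proenzymes, which are activated by plasmin, furin or other metalloproteinases, and the tissue inhibitors of metalloproteinases (TIMPs) block the active enzymes. In cartilage, stromelysins cut proteoglycans, collagenases cut the triple helix of type II collagen and gelatinases degrade the unwound chains. Inflammatory cytokines induce several of these genes in chondrocytes, largely through the transcription factors AP-1 and NF-κB.

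Each library held between 19344893 and 19725135 estimated counts. The study describes the replicates as independent, but the labels do not tie them to separate rats, so the p-values measure the spread between these samples. In bulk RNA, fewer cells of a type and less RNA per cell cannot be told apart. Every direction below is that of the deposited labels. The headings of the study's own list of changed genes, read as written, imply the reverse order of these groups, which the deposited table cannot settle, and so the groups are named as the libraries labelled TNF-α and TNF-α+NFL. Across 13250 tested genes, the root mean square log2 difference of a library from its own group mean was between 0.151 and 0.172 in the TNF-α group and between 0.128 and 0.134 in the TNF-α+NFL group. Of the 9 chondrocyte markers, *Col11a1* lay between 404.5 and 533.3 TPM (transcript abundance scaled to transcript length and library size) and the others at 9.81 TPM or less, among them *Col2a1* (7.10 to 9.54) and *Acan* (4.47 to 6.12). Of the 6 fibroblast markers, *Dpt* lay between 8.83 and 11.51 TPM and the others between 119 (*Col1a2*) and 2733 TPM (*Thy1*). Of 7 macrophage markers found in the table, only *Cd68* passed the filter, at 33.6 to 43.4 TPM, while *Csf1r* had at most 40 counts, *Lyz2* at most 14.95, *Ptprc* at most 7, *Itgam* at most 6 and *Aif1* at most 3 in a library, and *C1qb* was at 0 in every library. In the list of smooth muscle and pericyte markers, *Acta2* and *Myh11* rose in the TNF-α+NFL libraries (edgeR adjusted p = 0.010 and 0.041), while *Cspg4* and *Pdgfrb* had log2 fold changes of -0.24 (adjusted p = 0.22) and 0.056 (0.82). The summed level of the list was 3304 to 3399 TPM in the TNF-α group and 3980 to 4234 in the TNF-α+NFL group, most of it from *Acta2* (2837 to 3780 TPM over the 6 libraries). The summed level of the 9 chondrocyte markers was 439 to 488 TPM and 517 to 571 TPM, in the same order, most of it from *Col11a1*. The part of these shifts in the values below was not tested.

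On the rat genome *Mmp13*, *Mmp12*, *Mmp3* and *Mmp10* lie in this order on chromosome 8, and the 6 protein-coding genes from *Mmp13* to *Mmp10* all belong to the metalloproteinase family, while the other 6 genes lie on 6 other chromosomes (RefSeq, build GRCr8). The promoter table of RefSeq held 5 of the 10 genes: *Mmp3*, *Mmp10*, *Mmp11*, *Mmp12* and *Mmp13*. The 120 bases before each transcription start are shown because the 4 clustered genes include those with the largest fitted changes between the groups, and because the stretch holds the AP-1 motif through which inflammatory signals are known to act on this family. Capitals mark the AP-1 motif, searched on both strands as TGAGTCA or TGACTCA, and the TATA box, searched on the sense strand as TATAAA. The windows are on the plus strand of GRCr8, at chr8:12782709-12782828 for *Mmp13*, chr8:12925161-12925280 for *Mmp3*, chr8:12974587-12974706 for *Mmp10*, chr8:12866532-12866651 for *Mmp12* and chr20:12730164-12730283 for *Mmp11*.
Mmp13: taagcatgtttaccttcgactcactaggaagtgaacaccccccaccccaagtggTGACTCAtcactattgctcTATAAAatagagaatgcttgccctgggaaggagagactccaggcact
Mmp3: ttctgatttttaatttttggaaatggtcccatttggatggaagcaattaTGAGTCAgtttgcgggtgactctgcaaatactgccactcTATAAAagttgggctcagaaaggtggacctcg
Mmp10: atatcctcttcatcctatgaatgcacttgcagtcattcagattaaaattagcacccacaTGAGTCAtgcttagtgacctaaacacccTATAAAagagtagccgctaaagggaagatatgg
Mmp12: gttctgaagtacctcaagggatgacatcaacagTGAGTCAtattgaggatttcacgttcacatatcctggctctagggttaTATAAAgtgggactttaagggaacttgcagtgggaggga
Mmp11: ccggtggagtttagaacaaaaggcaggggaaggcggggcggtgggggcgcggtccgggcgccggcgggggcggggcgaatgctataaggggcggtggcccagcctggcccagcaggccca

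The 4 clustered genes each had 1 AP-1 motif, starting 66 bases before the start in *Mmp13*, 71 in *Mmp3*, 61 in *Mmp10* and 87 in *Mmp12*, with a TATA box between it and the start. *Mmp11* had neither in the 250 bases searched. Over the same 250 bases, 3.21% of the promoters of 11769 tested genes held the AP-1 motif, 4.18% held the TATA box and 0.195% held both. A match of letters is a description and not a measured binding site.

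The 10 genes covered a wide range of levels, and their order was the same in TPM and in FPKM. *Mmp3*, which encodes stromelysin-1, was the most abundant at a mean of 8029 TPM over the 6 libraries (7188 to 8521), and it ranked number 8 of all genes in the table. *Mmp2*, encoding gelatinase A, followed at 1256 TPM (1180 to 1355). *Mmp10*, encoding stromelysin-2, was at 1070 TPM (969 to 1169) and *Mmp14*, encoding the membrane-type enzyme MT1-MMP that activates proMMP2 at the cell surface, was at 1047 TPM (992 to 1169). *Mmp10* and *Mmp14* were the only neighbours in the order whose libraries overlapped, with *Mmp10* above *Mmp14* in 4 of 6 libraries. *Mmp13*, encoding collagenase-3, the main enzyme that cuts type II collagen, was far lower than these at 229 TPM (199 to 263), and *Mmp3* exceeded *Mmp2* by 6.39 times on this scale. *Mmp19* was at 145 TPM (141 to 153) and *Mmp9*, encoding gelatinase B, at 96.2 TPM (88.6 to 107). *Mmp16*, encoding the membrane-type enzyme MT3-MMP, was at 24.4 TPM (22.8 to 26.2), and *Mmp11*, encoding stromelysin-3, lay between 17.7 and 20.3 TPM. *Mmp12*, encoding macrophage elastase, was the lowest at 3.53 TPM (2.25 to 4.61), with 39 to 84 counts per library.

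**Figure D1:**
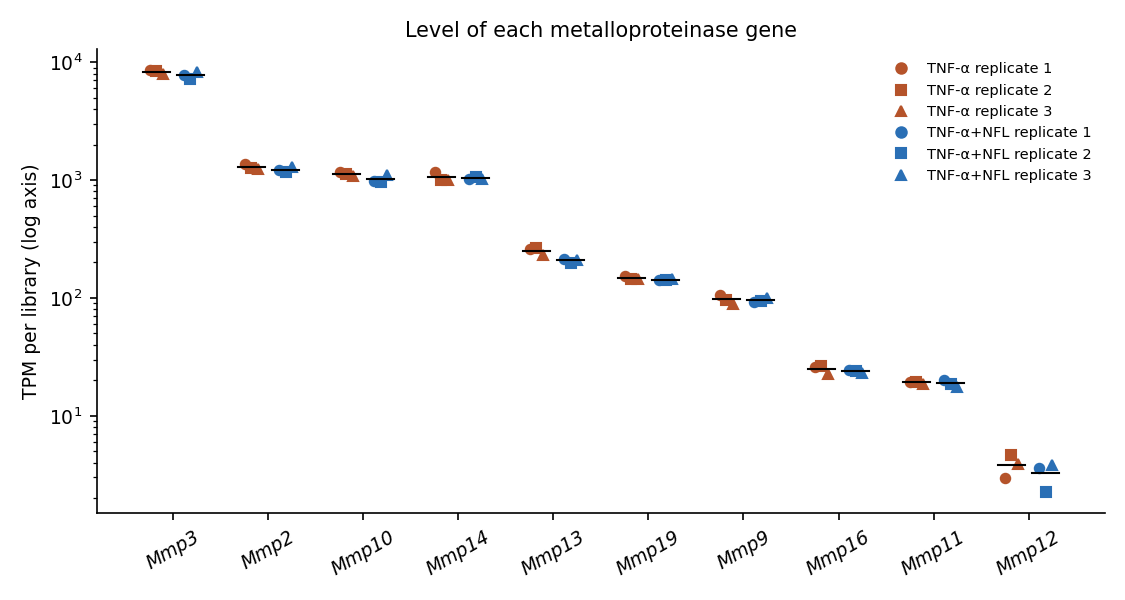
TPM of each of the 10 genes (log axis) in each library, with the TNF-α libraries in brown, the TNF-α+NFL libraries in blue and a black line at each group mean (n = 3). The points run from 8521 TPM for the highest library of *Mmp3* down to 2.25 TPM for the lowest of *Mmp12*, and the groups lie close together within each gene on this axis.

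Together the 10 genes made up 1.28%, 1.24% and 1.18% of all TPM in TNF-α replicates 1, 2 and 3, and 1.15%, 1.09% and 1.22% in those of TNF-α+NFL. The groups overlapped, since TNF-α+NFL replicate 3 lay above TNF-α replicate 3. *Mmp3* alone supplied between 66.0% and 68.2% of this sum, and *Mmp13* between 1.73% and 2.13%.

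**Figure D2:**
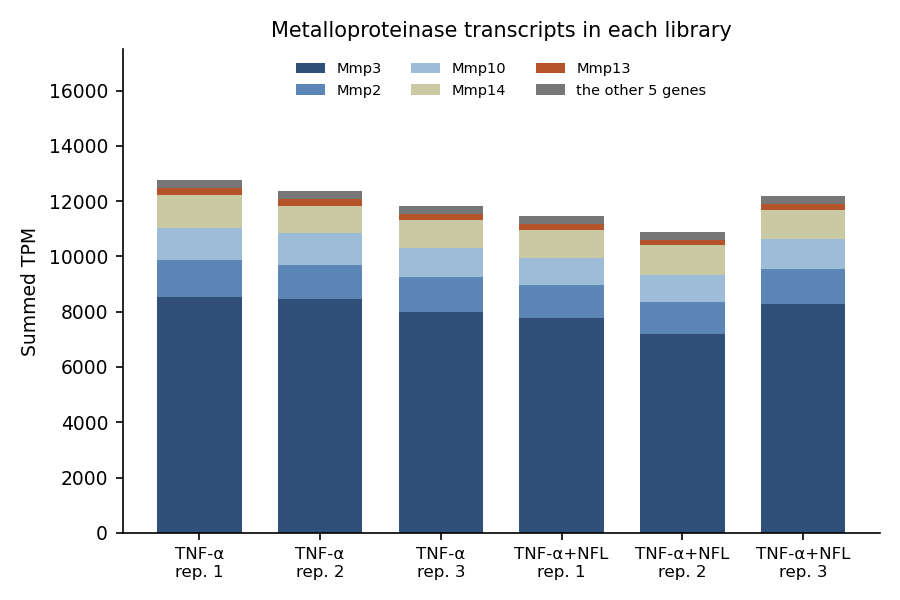
Stacked bars of the summed TPM of the 10 genes in each of the 6 libraries, with *Mmp3* at the base and the 5 least abundant genes pooled at the top. The sums lie between 10886 and 12783 TPM, and *Mmp3* fills most of each bar.

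The libraries labelled TNF-α+NFL were compared with those labelled TNF-α to ask whether the RNA of matrix-degrading enzymes changed after NFL. *Mmp13* was the only one of the 10 genes past an edgeR adjusted p of 0.05, and it fell in the TNF-α+NFL libraries, while *Mmp10* passed only with the DESeq2 Wald test. All 10 fitted log2 fold changes were below 0, as were 51.8% of those of all genes tested, and their median was -0.098 against -0.0035 for all genes. The members were chosen with earlier results of these data known, and *Mmp3* and *Mmp10* divide reads. The shares given here therefore describe the list and are not a test of it. With edgeR's quasi-likelihood test, whose p-values were adjusted over all genes tested, 1 of the 10 was lower at 0.05 and 0 were higher, against 0.204% of all tested genes lower, 0.408% higher and 0.611% in either direction. At an unadjusted p under 0.05 there were 5 (*Mmp13*, *Mmp10*, *Mmp3*, *Mmp19* and *Mmp2*), each with a fitted value below 0, where 5.45% of all genes passed in that direction and 11.1% in either direction. With limma on log2(TPM + 1), the unadjusted p of *Mmp3*, *Mmp19* and *Mmp2* was 0.069, 0.22 and 0.17. Without TNF-α+NFL replicate 2, that of edgeR was 0.11, 0.13 and 0.17, in the same order. No gene of the 10 was higher by DESeq2 or limma either. In CPM (counts scaled to library size by the TMM method, but not to length), the groups did not overlap in *Mmp3*, *Mmp10*, *Mmp13* and *Mmp19*, all with the TNF-α+NFL libraries below, as in 8.17% of all tested genes, while the reverse held for 0 of the 10 and for 8.66% of all genes. In TPM only *Mmp13* remained without overlap, against 5.06% of all tested genes.

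**Figure D3:**
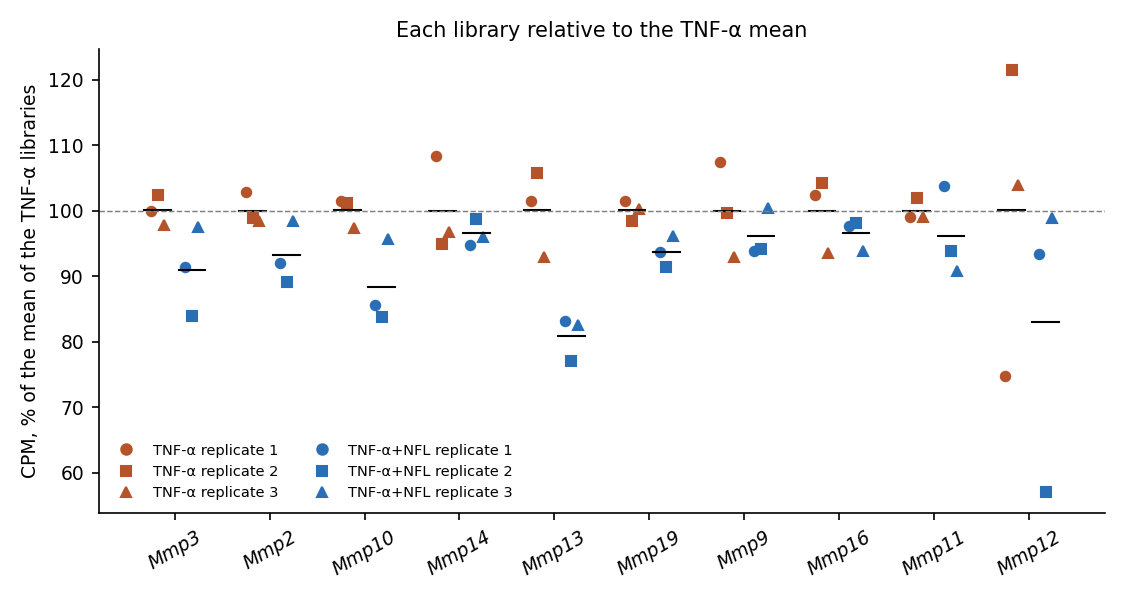
CPM of each gene in each library as a percentage of the mean of the 3 TNF-α libraries (dashed line at 100), in the order of TPM, with black lines at the group means. The 3 TNF-α+NFL libraries of *Mmp13* lie at 77.0% to 83.2%, below all 3 TNF-α libraries (93.0% to 105.7%), while the groups of *Mmp9*, *Mmp14* and *Mmp16* are intermixed.

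The collagenase *Mmp13* (Entrez gene 171052) was at a CPM of 341, 355 and 313 in TNF-α replicates 1, 2 and 3, and of 280, 259 and 278 in TNF-α+NFL replicates 1, 2 and 3. The lowest TNF-α library was above the highest TNF-α+NFL library, and the means were 336 ± 21.8 (SD, n = 3) and 272 ± 11.5 (SD, n = 3). The log2 fold change was -0.31 with a standard error of 0.050 (edgeR adjusted p = 0.017), so *Mmp13* RNA fell by 19.1%, with a 95% interval of the change from -25.0% to -12.8%. It was number 29 of the 13250 tested genes by p. The exact permutation test gave p = 0.10 (two-sided), the smallest that 3 samples against 3 allow. Counts were whole in all 6 libraries, between 5054 and 7021, which leaves no trace of reads divided with another gene.

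The call of *Mmp13* depended on the libraries used and on the processing. It was kept without TNF-α replicate 3 (adjusted p = 0.0077), and was not past 0.05 when TNF-α replicate 1 (0.057) or 2 (0.14), or 1 of TNF-α+NFL replicates 1 (0.11), 2 (0.18) and 3 (0.10), was left out, each an edgeR adjusted p, while the log2 fold change stayed between -0.35 and -0.26. The call was also lost with the replicate number as a block (edgeR adjusted p = 0.055) and with limma on log2(TPM + 1) and log2(TPM + 0.1) (adjusted p = 0.12 and 0.11).

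The stromelysins *Mmp3* and *Mmp10*, which degrade proteoglycans and fibronectin and activate other proenzymes, had smaller fitted changes that did not pass the adjusted threshold. *Mmp10* (Entrez gene 117061) was at a CPM of 993, 990 and 952 in the TNF-α replicates and of 837, 819 and 935 in the TNF-α+NFL replicates. Replicate 3 of TNF-α+NFL stood close to the TNF-α libraries, while the other two lay well below them. Its log2 fold change was -0.18, with a 95% interval from -0.28 to -0.075 (edgeR adjusted p = 0.15). The DESeq2 Wald test called it (adjusted p = 0.028), in a setting that called 0.4% of all genes lower. *Mmp3* (Entrez gene 171045) was at a CPM of 6668, 6822 and 6521 in the TNF-α replicates and of 6092, 5595 and 6504 in the TNF-α+NFL replicates, with the same library, TNF-α+NFL replicate 3, next to the TNF-α group. Its log2 fold change was -0.14, with a 95% interval from -0.24 to -0.030 (edgeR adjusted p = 0.30), and -0.082 when TNF-α+NFL replicate 2 was left out.

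*Mmp3* and *Mmp10* shared reads. Their estimated counts were fractional in 6 of 6 libraries each, whereas the sum of the pair was whole in all 6 (within 0.001), between 125241 and 154347 counts. The split between these genes is therefore an estimate, and the values of each are uncertain to that extent. With the pair counted as 1 gene, a setting chosen after the data had been seen, the log2 fold change was -0.14 (edgeR adjusted p = 0.28). *Mmp10* held 134, 135 and 137 TPM for every 1000 TPM of *Mmp3* in the TNF-α libraries and 127, 133 and 135 in the TNF-α+NFL libraries. For *Mmp13* the corresponding values were 30.6, 31.2 and 28.7 in TNF-α replicates 1, 2 and 3 and 27.5, 27.7 and 25.5 in those of TNF-α+NFL, and these did not overlap.

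The gelatinases *Mmp2* and *Mmp9* degrade denatured collagen. *Mmp2* was at a CPM of 2076, 1995 and 1986 in the TNF-α replicates and of 1857, 1799 and 1987 in the TNF-α+NFL replicates, where replicate 3 fell among the TNF-α values. Its log2 fold change was -0.10 (95% interval -0.19 to -0.010, edgeR adjusted p = 0.39). *Mmp9* was at 160, 149 and 139 CPM and at 140, 141 and 150 CPM, in the same order. These values overlapped throughout, with a log2 fold change of -0.057 (95% interval -0.17 to 0.056, adjusted p = 0.76), so that a change beyond about 11.1% down or 3.96% up lay outside its interval. Leaving out 1 library moved *Mmp9* between -0.10 (TNF-α replicate 3) and -0.0020 (TNF-α replicate 1).

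Of the membrane-type enzymes, *Mmp14* was at a CPM of 1436, 1258 and 1282 in the TNF-α replicates and of 1257, 1309 and 1273 in the TNF-α+NFL replicates. TNF-α replicate 1 stood above the other 5 libraries, and without it the fitted log2 fold change moved from -0.051 (95% interval -0.16 to 0.053, adjusted p = 0.77) to 0.011. *Mmp16* ranged from 52.0 to 58.0 CPM in the TNF-α group and from 52.1 to 54.5 in the TNF-α+NFL libraries (fitted value -0.051 on the log2 scale, 95% interval -0.16 to 0.060, adjusted p = 0.79). Its counts were fractional in 6 of 6 libraries, as happens where reads are divided between sequences, so its values carry that uncertainty.

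The remaining genes were *Mmp19*, *Mmp11* and *Mmp12*. *Mmp19*, whose product cuts basement membrane proteins, was at a CPM of 152, 148 and 150 in the TNF-α replicates and of 140, 137 and 144 in the TNF-α+NFL replicates. The groups did not overlap in CPM, though the distance was small, with a log2 fold change of -0.093 (95% interval -0.18 to -0.010, edgeR adjusted p = 0.38). In TPM the groups of *Mmp19* overlapped, and limma on log2(TPM + 1) gave -0.050 (adjusted p = 0.71). *Mmp11* ranged from 21.78 to 22.42 CPM in the TNF-α group, within the 19.96 to 22.83 CPM of the other group (log2 fold change -0.057, adjusted p = 0.82). *Mmp12* ranged from 2.62 to 4.25 CPM and from 2.00 to 3.46 CPM, respectively. Its log2 fold change of -0.27 was close in size to that of *Mmp13*, but its 95% interval ran from -0.77 to 0.23 (adjusted p = 0.74), since the replicates varied by 23.6% and 27.3% of their means, against 6.47% and 4.21% for *Mmp13*. The fitted value of *Mmp12* was -0.059 with TNF-α+NFL replicate 2 left out, -0.10 with TNF-α replicate 2 left out and -0.44 with TNF-α replicate 1 left out. *Mmp11* ran from -0.11 to -0.016 in the same fits, the ends without TNF-α+NFL replicates 1 and 3, and *Mmp16* from -0.096 to -0.017, the ends without TNF-α replicates 3 and 2.

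**Figure D4:**
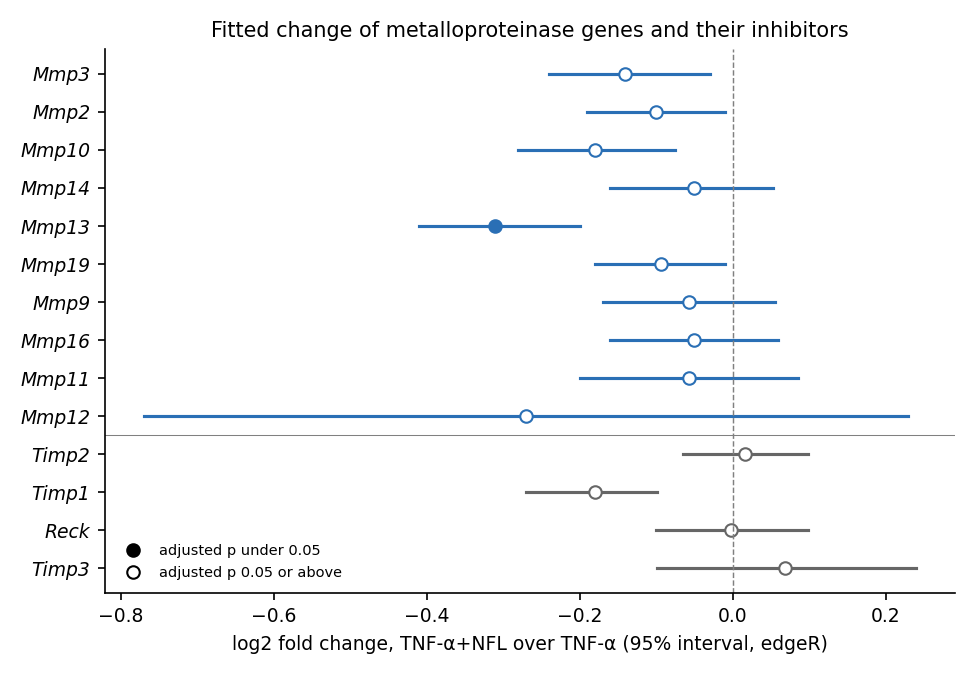
Fitted log2 fold change (TNF-α+NFL over TNF-α) with its 95% interval from edgeR for the 10 metalloproteinase genes (blue) and the inhibitors *Timp1*, *Timp2*, *Timp3* and *Reck* (grey), with filled circles at an adjusted p under 0.05. *Mmp13*, at -0.31, is the only filled circle, and the interval of *Mmp12* is the widest.

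The lowest CPM of the 6 libraries was in TNF-α+NFL replicate 2 for 6 of the 10 genes, 2 of which (*Mmp3* and *Mmp10*) divide reads with each other, and for 15.8% of all tested genes. This share was not tested. TNF-α+NFL replicate 3 minus replicate 2 was 0.79 on the log2 scale for *Mmp12*, between 0.072 and 0.22 for *Mmp2*, *Mmp3*, *Mmp9*, *Mmp10*, *Mmp13* and *Mmp19*, and -0.065, -0.048 and -0.041 for *Mmp16*, *Mmp11* and *Mmp14*. Across the 6 libraries, the genes whose profiles of centred log2 CPM came closest to that of *Mmp3* among 9082 compared were *Lpcat1*, *F8a1* and *Psmb10*, with root mean square differences of 0.0265, 0.0273 and 0.0282 on the log2 scale. Those closest to *Mmp2* were *Trim47* (0.013), *Gpnmb* (0.0146) and *Lpcat1* (0.0172). The profiles of *Mmp3* and *Mmp2* themselves varied around their means by 0.0959 and 0.0698.

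The inhibitors were compared as the counterpart of these enzymes. The list held 6 genes, of which 5 were tested, 0 were called in either direction and 1, *Timp1*, had an unadjusted p under 0.05, against 11.1% of all genes. The median of the list was -0.0020. *Timp1*, which encodes a broad inhibitor of secreted metalloproteinases, was at a CPM of 514, 559 and 529 in the TNF-α replicates and of 468, 473 and 468 in the TNF-α+NFL replicates. The groups did not overlap, with a fitted log2 fold change of -0.18 and a 95% interval from -0.27 to -0.099 (edgeR adjusted p = 0.060). It passed 0.05 with the DESeq2 Wald test (0.0036), with no filter on low counts (0.026) and without TNF-α replicate 1 (0.00020). The fit without TNF-α replicate 1, also named below, called 460 genes higher and 470 lower, against 54 and 27 with all 6 libraries. Where another library was left out, the edgeR adjusted p of *Timp1* ran from 0.12 to 0.37. *Timp2*, which takes part in the activation of proMMP2 by MT1-MMP, lay between 1142 and 1220 CPM in the TNF-α group and between 1182 and 1217 in the TNF-α+NFL libraries, with a 95% interval of the log2 fold change from -0.065 to 0.098. *Reck*, a membrane-anchored inhibitor, had a 95% interval from -0.10 to 0.098 and *Timp3* one from -0.099 to 0.24. *Timp4* had 3 to 10 counts per library and was not tested. In TPM, the 10 metalloproteinases summed to 4.41, 4.36 and 4.24 times the 4 TIMPs in TNF-α replicates 1, 2 and 3, and to 4.22, 3.92 and 4.42 times in those of TNF-α+NFL. *Mmp13* set against *Timp1* gave 0.184, 0.176 and 0.164 in the TNF-α libraries and 0.165, 0.151 and 0.164 in the others, which overlapped too. The ratios of the sums had means of 4.34 ± 0.0874 (SD, n = 3) and 4.19 ± 0.252 (SD, n = 3).

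Of the 13 other metalloproteinase genes looked for, 12 were in the table and 5 passed the filter. None of these 5 was called by edgeR, DESeq2 or limma, and 0 had an unadjusted edgeR p under 0.05, against 11.1% of all genes. *Mmp23* was the most abundant at 34.4 TPM (log2 fold change 0.0050, 95% interval -0.14 to 0.15), and *Mmp24* followed at 4.32 TPM (log2 fold change -0.25, 95% interval -0.51 to 0.012). Unlike the collagenase gene *Mmp13*, the genes *Mmp1*, *Mmp1b* and *Mmp8* were barely detected, with at most 3.44, 4.68 and 1 counts in any library. *Mmp8*, *Mmp20*, *Mmp21* and *Mmp27* had 3 counts or fewer in all 6 libraries.

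Among 8 tested genes of the proenzyme activators and inducers, 1 was lower (0.204% of all genes) and 0 were higher, and 3 had an unadjusted p under 0.05, against 11.1% of all genes. This was *Plau*, encoding urokinase, which converts plasminogen to plasmin, an activator of several of the proenzymes. It was at a CPM of 101, 100.3 and 96.9 in the TNF-α replicates and of 80.6, 80.9 and 75.3 in the TNF-α+NFL replicates, without overlap. *Plau* fell by 0.33 on the log2 scale (edgeR adjusted p = 0.0056), and that p was 0.053 with TNF-α replicate 2 left out and 0.067 with TNF-α+NFL replicate 1 left out. *Plat*, encoding the other plasminogen activator, had a log2 fold change of 0.20 (95% interval 0.11 to 0.29, adjusted p = 0.060), and passed 0.05 without the filter on low counts, at a minimum of 10 counts, with the DESeq2 Wald test and when TNF-α replicate 1 was left out. *Furin*, encoding the convertase that activates MT1-MMP and stromelysin-3, had one of -0.032 (adjusted p = 0.86).

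Among 16 tested genes of transcription regulators of this family, 0 were called and 3 had an unadjusted p under 0.05, against 11.1% of all genes, and the median was 0.0018. The AP-1 subunit gene *Fosl1* had the smallest adjusted p of the list (-0.25 on the log2 scale, edgeR adjusted p = 0.080) and was past 0.05 with no filter on low counts and without TNF-α replicate 1. It ranged from 44.6 to 50.9 CPM in the TNF-α group and from 40.5 to 41.5 CPM in the TNF-α+NFL group. Other subunits had fitted log2 fold changes of -0.12 for *Jun*, -0.075 for *Junb*, -0.0060 for *Jund*, 0.22 for *Fos* and -0.0081 for *Fosl2*, none with an adjusted p under 0.31. *Rela* and *Nfkb1*, encoding NF-κB subunits, were at 0.037 and 0.0096.

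Of the 19 matrix genes whose products these enzymes can cut, 1 was higher (0.408% of all genes) and 0 were lower, with a median of 0.016, and 5 had an unadjusted p under 0.05, against 11.1% of all genes. This was *Tnc*, encoding tenascin C, a matrix glycoprotein of injured tissue. It was at a CPM of 1865, 1773 and 1693 in the TNF-α replicates and of 2325, 2333 and 2382 in the TNF-α+NFL replicates, and it rose by 0.40 on the log2 scale (edgeR adjusted p = 0.00091). *Col11a1*, encoding a collagen of cartilage fibrils, had a log2 fold change of 0.22 (adjusted p = 0.052), and passed 0.05 without the filter on low counts, at a minimum of 10 counts, with DESeq2 size factors, the DESeq2 Wald test or limma-voom, and when TNF-α replicate 1 was left out. The type II collagen gene *Col2a1* had a log2 fold change of 0.23 (adjusted p = 0.22) and the aggrecan gene *Acan* one of 0.090 (adjusted p = 0.80). In this list 10 genes were fitted above 0 and 9 below 0. *Lum*, among the 5 with an unadjusted p under 0.05, had a log2 fold change of -0.15 (edgeR adjusted p = 0.19). Of 11 collagen and metalloproteinase receptor genes, 7 had an unadjusted p under 0.05, against 11.1% of all genes, and the median was 0.10. In this list 2 were higher (0.408% of all genes) and 0 were lower: *Itgb1*, encoding the integrin β1 subunit (log2 fold change 0.20, adjusted p = 0.028), and *Itga11*, encoding the α subunit of a collagen-binding integrin (0.27, adjusted p = 0.037). Both were past 0.05 without TNF-α replicate 1 and in no other fit that left out 1 library, where the adjusted p ran up to 0.26 for *Itgb1* and 0.28 for *Itga11*, each without 1 of the TNF-α+NFL replicates. With the replicate block, *Itgb1* was at 0.10 and *Itga11* at 0.063, and *Itga11* was at 0.14 and 0.13 in the limma fits on TPM.

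**Figure D5:**
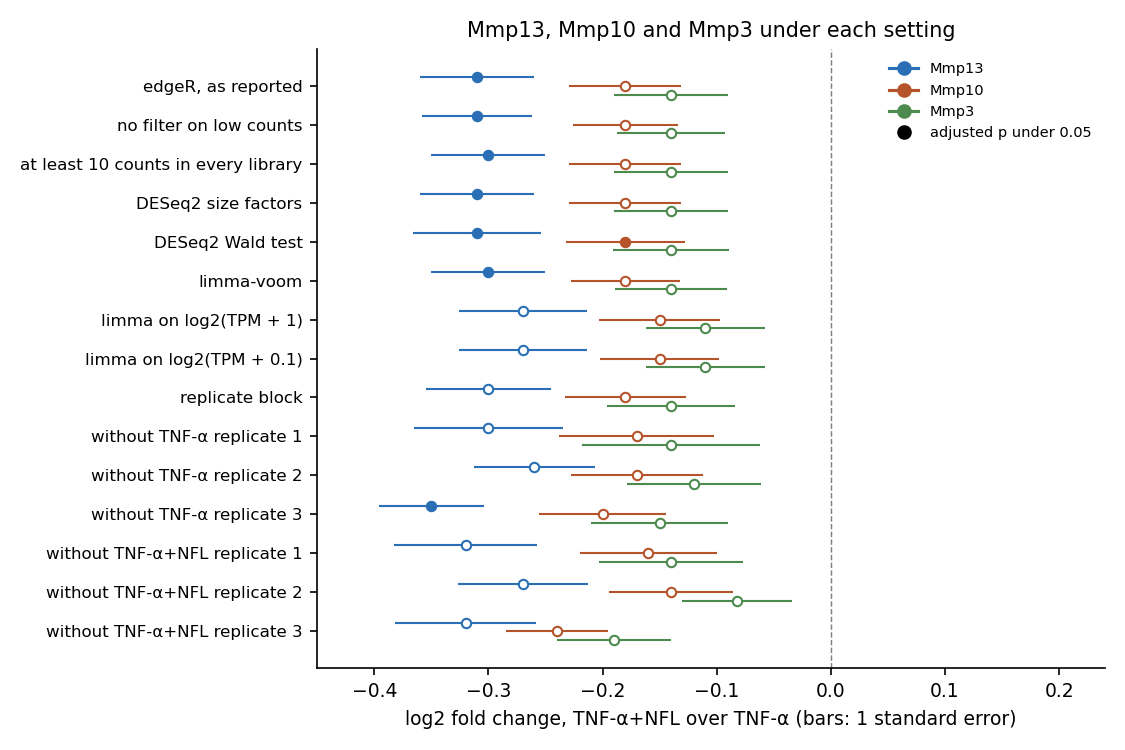
Log2 fold change (TNF-α+NFL over TNF-α) of *Mmp13* (blue), *Mmp10* (brown) and *Mmp3* (green) under each processing setting, with bars of 1 standard error and filled circles at an adjusted p under 0.05. All values lie below 0, *Mmp13* stays between -0.35 and -0.26, and its circle is open in 8 of the 14 alternatives.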

How the data were processed

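RNA-seq libraries (poly(A)-selected, single-end reads of 50 bases) of 3 TNF-α and 3 TNF-α+NFL samples were used. The table that the authors deposited holds estimated counts (not normalized) beside FPKM and TPM values, both scaled to transcript length. The processing notes of the submitters list HISAT2 2.0.4, Bowtie2 2.2.5, RSEM 1.2.12 and the build Rnor_6.0; the annotation is not given in the sources used here. Depth was 19344893 to 19725135 estimated counts per library.

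Counts were rounded and compared by the two-sided quasi-likelihood test of edgeR 4.0.16 (R 4.3.3), after filterByExpr, TMM normalization and a robust fit. Its p-values were adjusted by the Benjamini-Hochberg method over the 13250 genes that passed. Standard errors and 95% intervals were derived from the F statistic. TPM was used to compare levels between genes, for sums and ratios over genes in each library, and in the limma alternatives. Alternatives were other filters, DESeq2 1.42.0, limma 3.58.1, limma on log2(TPM + 1) and log2(TPM + 0.1), the replicate number as a block and leaving out each library. The test was checked on simulated counts.

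Genes named are the 10 members, the TIMPs and *Reck*, listed genes past an adjusted p of 0.05, and the 3 genes closest in profile to each of the 2 most abundant members (mean CPM of at least 10, pseudocount 0.5). Other genes of the lists are named as examples chosen after their values were seen. The members and lists were chosen with earlier results of these data known. Promoters came from RefSeq (GRCr8), a later build than that of the files.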

Additional observations from a re-analysis of the deposited data

How the results depend on the processing

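The 10 metalloproteinase genes were fitted under alternatives that reuse the same 6 libraries, so these fits are not independent. Of 140 such fits, 139 kept the direction below 0, as did the sum of *Mmp3* and *Mmp10*, chosen after the data had been seen. The exception was *Mmp14*, which ran from -0.084 to 0.011 on the log2 scale when 1 library was left out, the highest without TNF-α replicate 1. The number of metalloproteinase genes called lower, 1, became 2 with the DESeq2 Wald test, and 0 with limma on log2(TPM + 1), with limma on log2(TPM + 0.1) and with the replicate block, and ran from 0 to 1 when 1 library was left out. With the replicate block, *Mmp13* had a log2 fold change of -0.30 (edgeR adjusted p = 0.055). The labels do not say whether a replicate number marks a shared rat or day. Deviations of same-numbered libraries from their group means correlated at 0.0302, -0.0237 and 0.10, and those of differently numbered libraries between -0.104 and 0.0679. With 3 libraries per group, these values cannot show whether the samples were paired. Over all genes, 54 higher and 27 lower became 84 and 48 without the filter on low counts, 95 and 53 with the DESeq2 Wald test, 24 and 8 with either limma fit on TPM, and 25 and 9 with the replicate block. Leaving out 1 library gave 5 to 460 higher and 0 to 470 lower, the highest without TNF-α replicate 1 and the lowest without TNF-α+NFL replicate 1. Listed pathway genes, 3 higher and 1 lower, became 5 and 3 without the filter, 5 and 1 at a minimum of 10 counts, 5 and 2 with the DESeq2 Wald test and 1 and 1 with the block, and ran from 1 to 12 higher and 0 to 5 lower when 1 library was left out. *Reck*, at -0.0020, was at 0.00031 at a minimum of 10 counts and 0.029 with limma on TPM, and ran from -0.032 to 0.050 when 1 library was left out; *Timp2* ran from -0.0062 to 0.038. The cause of these shifts was not tested. RNA-seq measures neither the enzymes nor their activity. At 39 to 84 counts per library, the 95% interval of *Mmp12* spans -0.77 to 0.23.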
